A study of Homo sapiens with 12 samples.

Results

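The genes described here are 10 regulators of the G1 phase of the cell cycle, namely 5 inhibitors of cyclin-dependent kinases (CDKN1A, CDKN1B, CDKN1C, CDKN2C and CDKN2D) and 5 G1 cyclins (CCND1, CCND2, CCND3, CCNE1 and CCNE2). They were taken by symbol from a count table of 28278 genes, and all 10 were found. The RNA came from K562, an erythroleukaemia line of human origin with the BCR-ABL1 fusion, sequenced in 4 groups of 3 libraries. WT cells and cells knocked out for HRG1, the heme transporter encoded by SLC48A1 (HRG1-KO, here KO), were either untreated or treated with sodium butyrate, a short-chain fatty acid that inhibits histone deacetylases. Treated cells received 0.75 mM butyrate first at 24 h from plating and once more after another 48 h, and were harvested 6 h later, while the design text places the samples at day 8 of differentiation. How the knockout was made and whether it is 1 clone are not given in the sources used here, and nothing there says that replicates were separate cultures, so p-values measure only the spread between these libraries.

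Progress from G1 into S phase is driven by cyclin-dependent kinases, which act only when bound to a cyclin. D-type cyclins activate CDK4 and CDK6 and E-type cyclins activate CDK2, and these kinases phosphorylate the retinoblastoma protein RB1, which releases E2F factors to switch on genes for DNA replication. CIP/KIP inhibitors (CDKN1A or p21, CDKN1B or p27, CDKN1C or p57) bind whole cyclin-CDK complexes, whereas INK4 inhibitors (CDKN2C or p18, CDKN2D or p19, and also CDKN2A and CDKN2B) bind CDK4 and CDK6 themselves. CDKN1A is known to be induced by histone deacetylase inhibitors through GC boxes near its start that bind SP1-type factors. K562 cells are known to lack the CDKN2A and CDKN2B locus. Both CDKN2A and CDKN2B held 0 counts in each of the 12 libraries, where the limit for a count of 0 is 3 counts, or 0.0989 to 0.150 CPM depending on the library. CPM are counts scaled to a common library total, without further scaling for this limit and with TMM scaling for the levels below.

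The promoters of 3 inhibitors are shown. CDKN1A and CDKN2D were chosen as the inhibitors that rose with butyrate below. CDKN1B, of the same family as CDKN1A, was chosen because it did not pass that test with all libraries. Each sequence holds the 250 bases before the RefSeq start (GRCh38.p14), 5′ to 3′ on the gene's strand, with the GC box GGGCGG, on either strand, in capitals.
CDKN1A, chr6:36678464-36678713, plus strand: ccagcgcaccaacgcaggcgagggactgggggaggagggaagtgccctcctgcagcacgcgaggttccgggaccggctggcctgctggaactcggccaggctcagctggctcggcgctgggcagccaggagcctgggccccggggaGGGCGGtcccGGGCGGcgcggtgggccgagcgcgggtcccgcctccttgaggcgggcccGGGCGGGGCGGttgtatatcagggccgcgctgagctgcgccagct
CDKN2D, chr19:10568980-10569229, minus strand: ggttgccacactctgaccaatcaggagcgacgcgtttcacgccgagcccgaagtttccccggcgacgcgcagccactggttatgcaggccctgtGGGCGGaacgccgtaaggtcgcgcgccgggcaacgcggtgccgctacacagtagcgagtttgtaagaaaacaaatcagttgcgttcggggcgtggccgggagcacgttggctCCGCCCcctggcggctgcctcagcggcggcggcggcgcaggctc
CDKN1B, chr12:12717118-12717367, plus strand: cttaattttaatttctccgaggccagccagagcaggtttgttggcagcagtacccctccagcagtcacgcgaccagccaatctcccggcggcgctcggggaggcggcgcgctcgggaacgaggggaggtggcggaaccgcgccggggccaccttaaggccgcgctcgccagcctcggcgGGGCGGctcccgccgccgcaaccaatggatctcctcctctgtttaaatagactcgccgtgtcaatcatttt
CDKN1A held 4 matches, the nearest beginning 40 and 45 bases before the start, and these adjoining matches overlap by 1 base. CDKN2D held 2 and CDKN1B 1. Among other members that did not pass for butyrate with all libraries, CDKN2C held 0, 5 and 1 matches in its 3 windows. CCND3 held 0, 2 and 5, and CCNE1 held 7 in its single window. Without the libraries of replicate number 1, CDKN1B (lower, both genotypes), CDKN2C (lower, KO) and CCNE1 (higher, KO) did pass, as given below. Whether the count of matches goes with the response was not tested. Of the 35116 RefSeq windows of this length, 42.6% held at least 1 match, 24.3% at least 2 and 7.63% at least 4. E2F-like motifs (TTCGCGC, the variant TTGGCGC, the variant TTCCCGC and the variant TTGCCGC, each on either strand) had 0 matches in these 3 windows and at least 1 in 10.9% of all windows. Of the 6 members with a RefSeq window, CDKN2C held 2 such matches in the window chr1:50968456-50968705 (1 of its 3 windows), and CCNE1 (1 window) and CCND3 (3 windows) held 0. A match is a string of letters and was not tested as a binding site.

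Library totals ranged from 19963594 to 30348538 counts. SLC48A1 lay between 58.9 and 83.8 CPM in the WT libraries and between 2.94 and 10.1 CPM in the KO libraries, so the genotypes did not overlap. Genotype separated on the first principal component of log2 CPM (53.1% of the variance). On the second (20.9%), untreated libraries lay between 15.3 and 75.6 and treated replicates 2 and 3 between -84.8 and -74.3, while replicate 1 of treated WT lay at 40.9 and replicate 1 of treated KO at 4.21. The treated libraries numbered 1 thus stood apart from the other treated libraries, and the ribosomal RNA gene RNA28SN5 took 2.30% to 5.63% of counts in the libraries numbered 1 against 0.673% to 2.86% in the others. The called differences of members, and others of members whose call changed, are therefore also given without the 4 libraries numbered 1. For other genes of the pathway that fit is given as counts, and for some genes only. All 9 erythroid markers were detected. Their summed CPM in WT was 5771 to 11963 untreated and 15903 to 33393 treated, and in KO 3515 to 6187 untreated and 4225 to 5958 treated. The 7 megakaryocyte markers, with PF4 at 0 in every library, summed to 33.4 to 61.0, 118 to 227, 15.6 to 55.4 and 81.7 to 118 CPM in the same order. ITGA2B had a mean of 36.2, 137, 11.9 and 56.7 CPM and GP1BA of 2.86, 4.47, 28.1 and 28.0 CPM. The 4 myeloid markers summed to at most 4.26 CPM and the 4 lymphoid markers, with MS4A1 at 0 in every library, to at most 13.1 CPM. The 4 stromal or epithelial markers, mostly COL1A1 and EPCAM, summed to 48.7 to 65.4, 96.9 to 136, 54.2 to 80.2 and 102 to 179 CPM, COL1A1 going from a mean of 3.05 to 80.8 CPM in WT and from 3.08 to 96.9 in KO. The part of these differences in the results below was not tested, and in bulk RNA a change in the share of cells cannot be told apart from a change in RNA per cell.

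All 10 members passed the filter on low counts and entered edgeR's quasi-likelihood test with 15805 genes. In this fit, with all libraries and no block for replicate number, butyrate lowered 0 members in either genotype. It raised 1 member in WT cells, the INK4 inhibitor CDKN2D, and 3 members in KO cells, CDKN2D, CDKN1A and CCND1. Other fits called further members, some higher and some lower, as given by gene below. At an edgeR adjusted p under 0.05, butyrate changed 2.35% of all tested genes in WT (1.8% higher, 0.55% lower) and 3.4% in KO (2.8% higher, 0.595% lower). In untreated cells CDKN1A and CCND1 were lower in KO than in WT, 2 of 10 members where 22.6% of all genes passed (11.7% higher, 10.9% lower). In treated cells CCND1 alone of the 10 passed, again lower in KO, where 19% of all genes passed (10.1% higher, 8.89% lower). The share of members called between genotypes was thus near that of all genes or below it. Levels of the 10 members differed widely in their spread, from CCNE1, which varied least, to CCND1, which spanned 0.143 to 83.5 CPM, as the plot of levels by library shows. The comparisons share libraries, untreated KO entering both the butyrate comparison in KO and the untreated genotype comparison, so their values are given side by side and not as independent results.

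**Figure D1:**
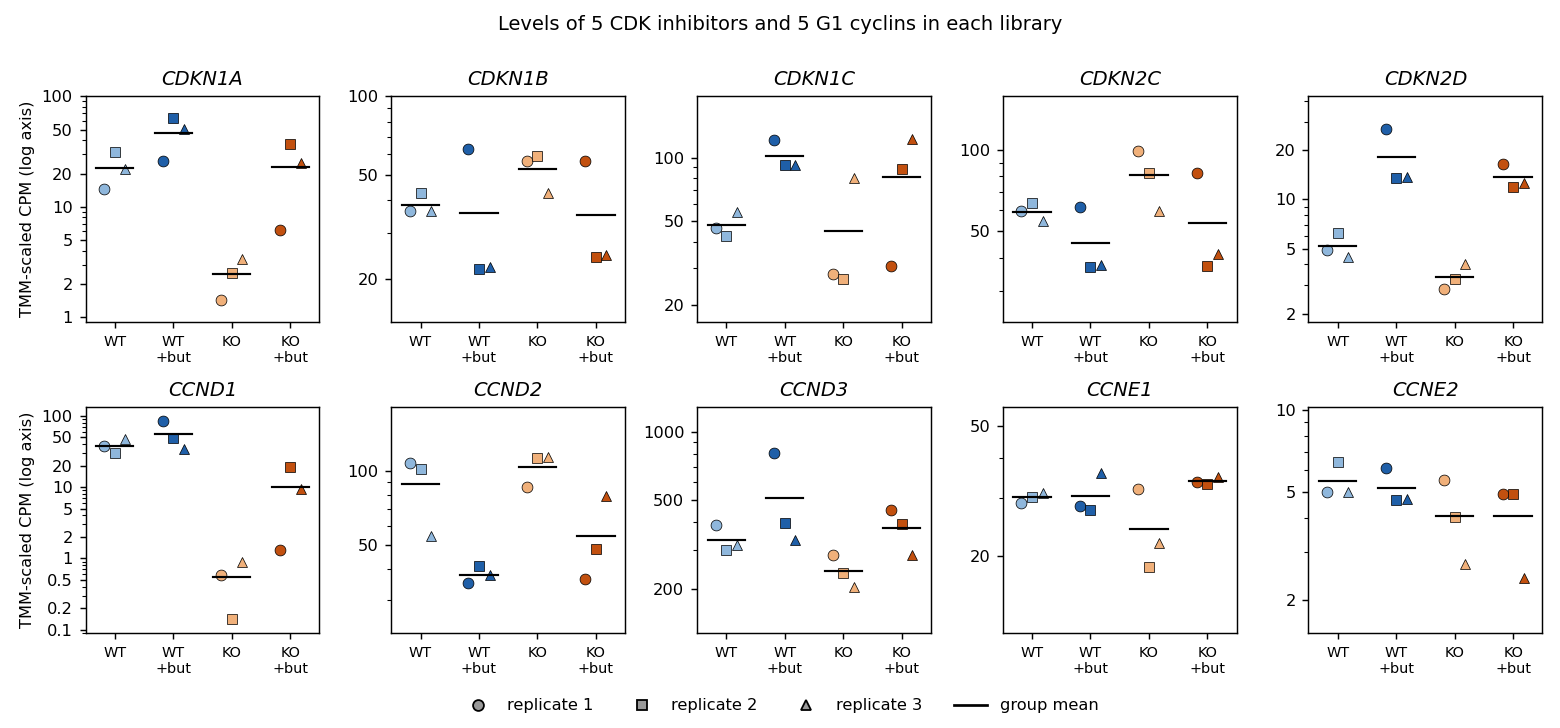
TMM-scaled CPM of the 10 genes in each of the 12 libraries on log axes, by group (WT, WT with butyrate, KO, KO with butyrate), with the replicate number as the symbol and the group mean as a line. CDKN1A and CCND1 are lowest in the 3 untreated KO libraries, and CDKN2D is higher in all treated than in all untreated libraries of the same genotype.

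CDKN1A (chr6:36676460-36687339 in GENCODE 29, GRCh38) encodes p21, an inhibitor of cyclin-CDK complexes that also binds PCNA. It stood at 14.4, 31.5 and 21.9 CPM in replicates 1, 2 and 3 of untreated WT and at 26.0, 63.5 and 50.7 CPM in treated WT. In untreated KO it stood at 1.44, 2.52 and 3.38 CPM, from 27, 53 and 101 counts, and in treated KO at 6.11, 37.1 and 24.9 CPM. Untreated KO libraries were all below untreated WT libraries, treated KO libraries were all above untreated KO libraries, and treated KO overlapped both WT groups. Untreated KO held 0.110 times the WT level (log2 fold change -3.19, SE 0.60, edgeR adjusted p 0.00228), and each of the 6 fits with 1 library left out kept this call. The fit without the libraries numbered 1 gave -3.18 (edgeR adjusted p 4.82e-05). Butyrate raised CDKN1A 9.19-fold in KO (log2 fold change 3.20, SE 0.60, edgeR adjusted p 0.0179, and 0.000445 with the replicate number as a block). This call was lost without replicate 1 (edgeR adjusted p 0.0834) or 2 (0.0997) of untreated KO or replicate 2 of treated KO (0.0788), with the log2 change between 2.64 and 3.64 over the 6 fits.

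In WT the butyrate difference of CDKN1A was 1.05 (SE 0.55, edgeR adjusted p 0.345), with treated above untreated at each of the 3 replicate numbers. Without the libraries numbered 1 it was 1.09 and passed (edgeR adjusted p 0.0324), where 11.4% of 16460 tested genes passed, 6.95% higher. In KO the same fit gave 3.36 (edgeR adjusted p 5.25e-04, 13.1% of genes passing). In treated cells CDKN1A averaged 22.7 ± 15.6 CPM in KO and 46.7 ± 19.1 in WT (SD, n = 3). That difference of -1.04 did not pass (edgeR adjusted p 0.221), but passed with the replicate block (-1.21, adjusted p 0.00880, where 29.2% of genes passed) and without the libraries numbered 1 (-0.90, adjusted p 0.0360, where 24.7% passed, 12.9% higher and 11.8% lower).

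CDKN1C (chr11:2883213-2885773) encodes p57, an imprinted inhibitor of the same family. Its level was 46.1, 42.3 and 55.3 CPM in untreated WT and 121, 92.0 and 92.8 in treated WT, groups that did not overlap, as held for 3 members in this comparison (2 higher and 1 lower in treated cells) and for 21.7% of all genes. The log2 difference of 1.09 (SE 0.48) had an edgeR adjusted p of 0.254. In KO it spread more, with 28.0, 26.5 and 80.1 CPM in untreated and 30.6, 88.1 and 124 in treated libraries. The groups overlapped, and the difference of 0.85 (SE 0.47) did not pass (edgeR adjusted p 0.349).

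CDKN1B (chr12:12715058-12722371) encodes p27, an inhibitor known for holding cells in quiescence. Untreated WT held 36.3, 42.6 and 36.3 CPM, and treated WT 62.9, 21.9 and 22.2. Untreated KO held 56.5, 59.4 and 42.7 CPM, and treated KO 56.5, 24.2 and 24.7. In each genotype replicate 1 of the treated group was apart from replicates 2 and 3, which lay below every untreated library. With all libraries the log2 differences of -0.11 in WT (SE 0.42, edgeR adjusted p 0.936) and -0.59 in KO (SE 0.42, adjusted p 0.470) did not pass. Without the libraries numbered 1, the WT decrease of CDKN1B passed (-0.85, edgeR adjusted p 0.0293), as did that in KO (-1.08, adjusted p 0.0104), where 4.5% and 4.48% of all genes passed in that direction. Its level thus depended on which treated libraries were used, and in WT its direction did as well, being 0.14 without replicate 2 or without replicate 3 of the treated group.

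CDKN2D (chr19:10566462-10569059) encodes p19, the INK4 inhibitor of CDK4 and CDK6 that the table held at the lower level of the pair. It stood at 4.87, 6.26 and 4.44 CPM in untreated WT and 27.1, 13.6 and 13.8 in treated WT, and at 2.84, 3.23 and 4.01 in untreated KO and 16.4, 11.99 and 12.7 in treated KO. Every treated library lay above every untreated library of either genotype. Butyrate raised it 3.49-fold in WT (log2 fold change 1.80, SE 0.33, edgeR adjusted p 0.0190) and 4.06-fold in KO (2.02, SE 0.34, adjusted p 0.00995). The butyrate effects differed between KO and WT by 0.22 (SE 0.46, edgeR adjusted p 1.00). In WT the call was lost without replicate 1, 2 or 3 of the untreated group (edgeR adjusted p 0.0907, 0.0697 and 0.0725), and in KO without replicate 1 or 2 of the untreated group (0.0579 and 0.0718). Over these fits the log2 change kept between 1.39 and 1.97 in WT and between 1.87 and 2.18 in KO, and with the block it passed in both (edgeR adjusted p 0.00746 and 0.00312). It also passed without the libraries numbered 1, at 1.34 in WT (edgeR adjusted p 0.0203) and 1.75 in KO (adjusted p 0.00642).

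CDKN2C (chr1:50960745-50974633) encodes p18, the other INK4 inhibitor detected. In WT its mean was 59.2 ± 4.60 CPM untreated and 45.2 ± 14.0 treated, and in KO 80.7 ± 20.2 untreated and 53.7 ± 25.2 treated (SD, n = 3). As for CDKN1B, replicate 1 of each treated group was the highest of its group, at 61.4 CPM in WT and 82.7 in KO, against 36.8 to 37.4 and 37.1 to 41.3 in replicates 2 and 3. The butyrate differences of -0.39 in WT and -0.59 in KO did not pass (edgeR adjusted p 0.576 and 0.330). Without the libraries numbered 1 it fell by 0.87 in KO (edgeR adjusted p 0.0222), and the value in WT was -0.68 (adjusted p 0.0578). Per kilobase of exon, CDKN2D made up 16.1% ± 1.48 of the INK4 signal of both genes in untreated WT and 46.3% ± 2.58 in treated WT, and 8.93% ± 3.63 and 37.5% ± 6.14 in KO (SD, n = 3). No treated library overlapped an untreated one in this share.

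**Figure D2:**
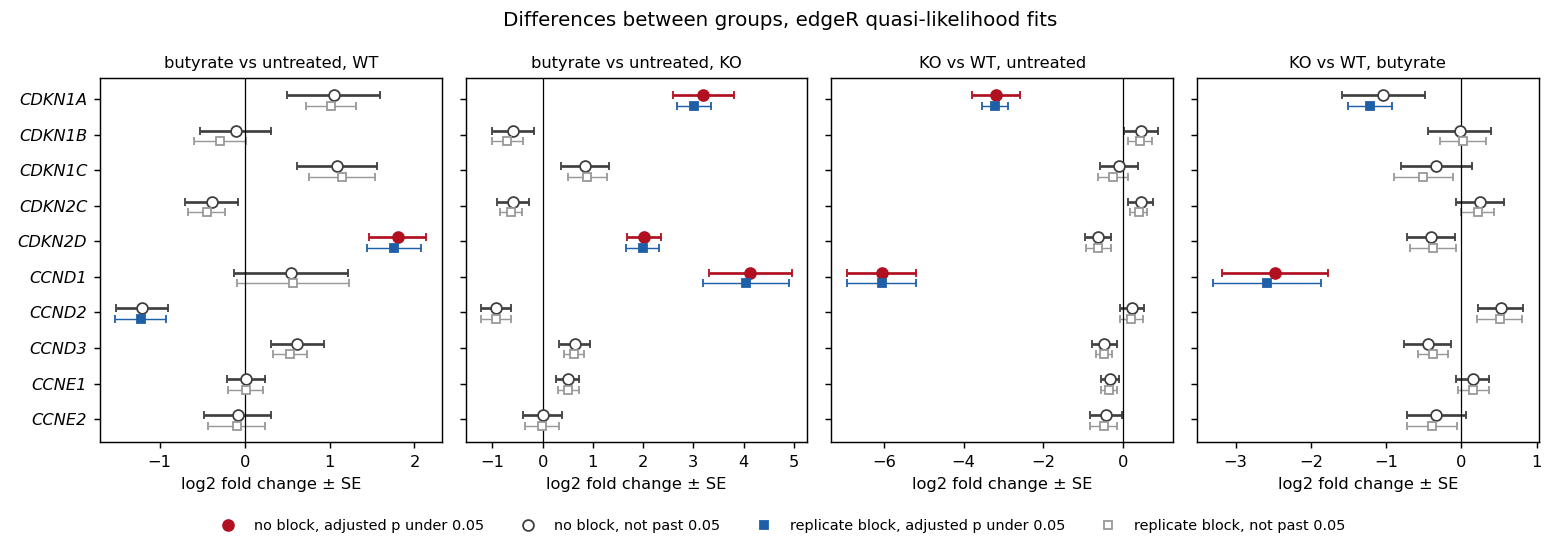
Log2 fold changes with their SE for the 10 genes in the 4 comparisons, from the fit without (circles) and with (squares) the replicate number as a block, filled where the adjusted p was under 0.05. CDKN2D is filled in both butyrate panels, and CCND1 in all panels but butyrate in WT.

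CCND1 (chr11:69641087-69654474) encodes cyclin D1, a partner of CDK4 and CDK6. Untreated WT held 699, 642 and 1385 counts (37.9, 29.8 and 46.6 CPM), and treated WT 1610, 1151 and 1066 (83.5, 49.1 and 33.9 CPM). Untreated KO held 11, 3 and 27 counts (0.589, 0.143 and 0.903 CPM), replicate 2 being at the limit of detection. Treated KO held 29, 580 and 290 counts (1.33, 19.2 and 9.35 CPM). The KO libraries all lay below the WT libraries, and within KO every treated library was above every untreated one, replicate 1 by the least.

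In untreated KO, CCND1 stood at 0.0149 times the WT level (log2 fold change -6.07, SE 0.88, edgeR adjusted p 0.000348), and it passed in each of the 6 fits with 1 library left out. The value ran from -6.75 without replicate 3 of untreated KO to -5.66 without its replicate 2, so the fold is imprecise at these counts, and without the libraries numbered 1 it was -6.09 (edgeR adjusted p 6.94e-05). Butyrate raised it 17.6-fold in KO (log2 fold change 4.14, SE 0.82, edgeR adjusted p 0.0224). The call was lost without replicate 1 (edgeR adjusted p 0.0899) or 2 (0.115) of untreated KO or replicate 2 of treated KO (0.0921), and the value ran from 3.24 to 4.80 over the 6 fits. The value was 4.63 without the libraries numbered 1 (edgeR adjusted p 0.00173). In WT the butyrate difference was 0.54 (SE 0.67, edgeR adjusted p 0.730), with replicate 3 lower in the treated than in the untreated library. Treated KO remained lower than treated WT at 0.180 times its level (log2 fold change -2.47, SE 0.71, edgeR adjusted p 0.0275). Leaving out replicate 1 (edgeR adjusted p 0.0579) or 2 (0.0546) of treated WT, or replicate 3 of treated KO (0.0801), ended that call. Over the 6 fits the value ran from -3.39 without replicate 2 of treated KO to -1.96 without its replicate 1, and without the libraries numbered 1 it was -1.56 (edgeR adjusted p 0.0352). Exons of LTO1, a gene on the opposite strand, overlap 10.3% of the CCND1 exon bases. LTO1, named after its values were seen, held 303 to 412 counts in untreated KO and differed from WT by -0.21 there (edgeR adjusted p 0.551) and by -0.77 in treated cells (adjusted p 0.0264).

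CCND2 (chr12:4273772-4305350) encodes cyclin D2, known as a target of BCR-ABL1 and STAT5 signalling in blood cells. It stood at 108, 102 and 54.3 CPM in untreated WT and 35.3, 41.2 and 37.8 in treated WT, and at 85.9, 112 and 113 in untreated KO and 36.7, 48.1 and 79.1 in treated KO. Treated libraries lay below untreated ones in both genotypes, without overlap. The log2 difference in WT was -1.21 (SE 0.30, edgeR adjusted p 0.0595) and passed with the replicate block (-1.22, adjusted p 0.0265, where 3.14% of all genes passed lower), but not without the libraries numbered 1 (-0.99, adjusted p 0.0620). In KO it was -0.92 (SE 0.30, edgeR adjusted p 0.115, and 0.0594 with the block). Between genotypes the differences were 0.24 in untreated and 0.52 in treated cells (edgeR adjusted p 0.628 and 0.265). Exons of AC008012.1, a gene on the same strand without an entry in the count table, overlap 13.8% of the CCND2 exon bases. Its part in the CCND2 counts was not tested.

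CCND3 (chr6:41934933-42050357) encodes cyclin D3, the D-type cyclin known to time the last divisions of erythroid precursors. It held the highest level of the 10 both in CPM and per kilobase of exon. WT libraries held 385, 298 and 313 CPM untreated and 809, 393 and 331 treated. KO libraries held 283, 237 and 204 CPM untreated and 450, 388 and 285 treated. Treated and untreated libraries did not overlap in KO, as held for 6 members in this comparison (5 higher and 1 lower in treated cells) and for 24.4% of all genes. The butyrate differences of 0.62 in WT (SE 0.31, edgeR adjusted p 0.320) and 0.63 in KO (SE 0.31, adjusted p 0.282) did not pass. In WT, replicate 1 of the treated group decided the size, the value without it being 0.11.

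Per kilobase of exon, CCND3 gave 73.9% ± 2.17 of the signal of the 3 D-type cyclins in untreated WT and 73.7% ± 5.82 in untreated KO (SD, n = 3). CCND1 gave 10.3% ± 2.80 and 0.206% ± 0.157, and CCND2 15.8% ± 4.69 and 26.1% ± 5.77, in the same order. In treated cells CCND3 gave 83.2% ± 2.77 in WT and 86.3% ± 7.20 in KO, and CCND2 5.85% ± 2.45 and 10.9% ± 6.12. The summed D-type signal was 77.4 ± 10.3 and 56.2 ± 4.94 CPM per kilobase in untreated WT and KO, and 105 ± 49.7 and 74.2 ± 10.9 in treated WT and KO. CCND3 was thus the largest share in every library, and the WT and KO sums in untreated cells did not overlap.

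**Figure D3:**
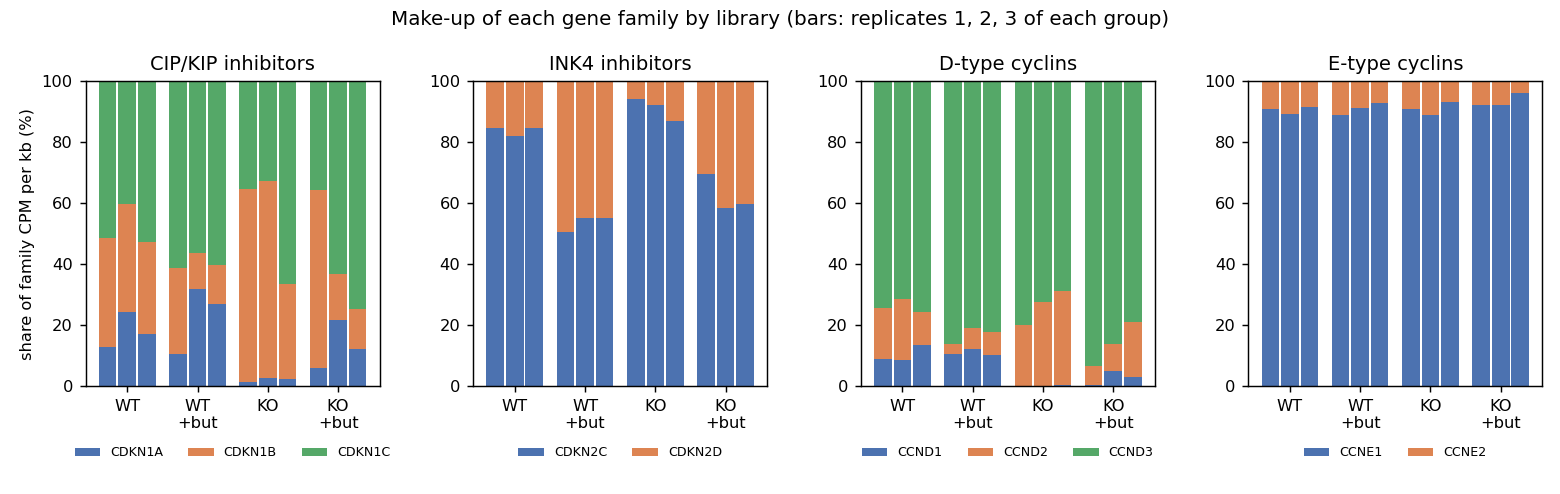
Share of each gene in the CPM per kilobase of its family (CIP/KIP inhibitors, INK4 inhibitors, D-type and E-type cyclins) in each of the 12 libraries, bars being replicates 1, 2 and 3 of each group. CDKN2D takes 44.9% to 49.3% of the INK4 signal in treated WT against 15.3% to 17.9% in untreated WT, and CCND1 at most 0.366% of the D-type signal in untreated KO.

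CCNE1 (chr19:29811898-29824308) and CCNE2 (chr8:94879770-94896678) encode the E-type cyclins that activate CDK2 at the start of S phase. CCNE1 had the smallest ratio of highest to lowest library among the members, with means in WT of 30.3 ± 1.07 CPM untreated and 30.6 ± 4.58 treated, and in KO of 24.1 ± 7.15 untreated and 34.0 ± 0.916 treated (SD, n = 3). Its butyrate difference was 0.02 in WT (SE 0.22, edgeR adjusted p 0.985) and 0.50 in KO (SE 0.22, adjusted p 0.237), where treated and untreated libraries did not overlap. Without the libraries numbered 1 it rose by 0.74 in KO (edgeR adjusted p 0.0433, 8.67% of all genes passing higher). The same fit placed it lower in untreated KO than in untreated WT (-0.63, adjusted p 0.0493, where 13.3% of genes passed lower and 26.2% in all), against -0.33 with all libraries (adjusted p 0.326). CCNE2 ranged from 2.42 to 6.40 CPM over the 12 libraries and passed in 0 comparisons. Its reads are uncertain, since exons of INTS8 on the opposite strand overlap 37.0% of its exon bases, INTS8 held 676 to 3470 counts a library, and the use of strand in counting is not given in the sources used here. CCNE1 took 90.5% ± 1.28 of the E-type signal per kilobase in untreated WT and 93.5% ± 2.31 in treated KO (SD, n = 3).

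Whether butyrate acted differently on the members in KO and WT was tested by the interaction, the effect in KO minus that in WT. Of the 10 members 0 passed in edgeR's quasi-likelihood test, as did 0% of all genes, while 2 members had an unadjusted p under 0.05, as did 4.16% of all genes. These were CCND1 (3.59, SE 1.04, edgeR adjusted p 0.668) and CDKN1A (2.15, SE 0.79, adjusted p 0.979). With the DESeq2 Wald test CCND1 passed (3.65, adjusted p 0.0494), and with the replicate block 0 members did (CCND1 adjusted p 0.349, CDKN1A 0.133, where 0.019% of genes passed). Without the libraries numbered 1 the values were 4.52 for CCND1 (edgeR adjusted p 0.0717) and 2.28 for CDKN1A (adjusted p 0.0888). The rises of CDKN1A and CCND1 in KO were therefore not shown to exceed those in WT in edgeR.

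Log2 ratios of treated to untreated libraries with the same replicate number show how much the members varied among replicates. For CDKN1A they were 0.86, 1.01 and 1.21 in WT and 2.08, 3.88 and 2.88 in KO for numbers 1, 2 and 3. CDKN2D gave 2.47, 1.12 and 1.64 in WT and 2.53, 1.89 and 1.66 in KO, and CCND1 in KO gave 1.18, 7.07 and 3.37. CDKN1B gave 0.79, -0.96 and -0.71 in WT and 0.00, -1.30 and -0.79 in KO. Number 1 was thus the lowest of the 3 for CDKN1A and the highest for CDKN2D, CDKN1B and CDKN2C in both genotypes.

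**Figure D4:**
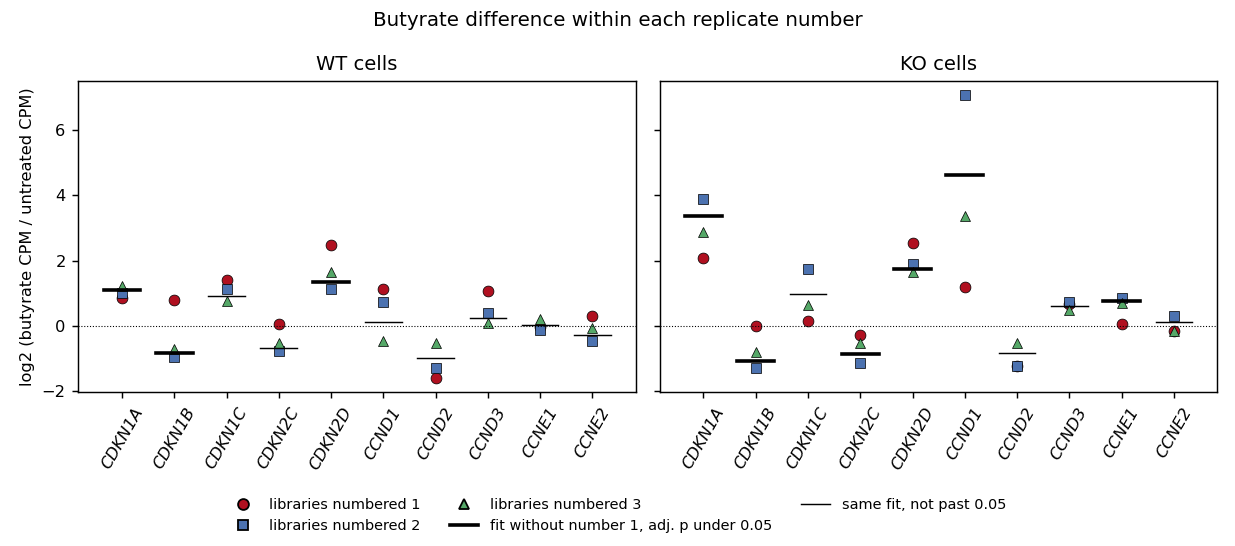
Log2 ratio of treated to untreated CPM for each replicate number in WT and KO cells, with the value of the fit without the libraries numbered 1 as a bar, thick where its adjusted p was under 0.05. For CDKN1B the libraries numbered 1 lie at 0.79 in WT and 0.00 in KO, and those numbered 2 and 3 lie between -1.30 and -0.71.

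For the 10 members in the 4 comparisons between groups, log2 CPM was also compared by exact permutation, two-sided. The smallest p that 3 libraries against 3 allow, 0.1, was reached by 15 of the 40, and adjusted by Benjamini-Hochberg over the 40 it was 0.267. Groups did not overlap for 3 members for butyrate in WT (all genes 11.3% higher and 10.4% lower), 6 in KO (12.6% and 11.8%), 5 for genotype in untreated cells (42.3%, of which 22.2% higher and 20.2% lower) and 1 in treated cells (33.9%, 17.9% higher and 16% lower).

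The members were set beside 78 other genes of the pathway in 3 lists, of which 77 passed the filter. In the list of G1/S machinery (38 genes, the partners of the members), 0 genes passed for butyrate in either genotype in edgeR, 6 in WT and 7 in KO having an unadjusted p under 0.05, as did 18% and 19.8% of all genes. The median log2 change was -0.16 in WT and -0.23 in KO, against 0.02 and 0.00 over all genes tested. CDK6, the kinase partner of the D-type cyclins, went from 158 to 84.6 CPM in WT and from 118 to 67.1 in KO without overlap. Its differences of -0.90 and -0.81 (edgeR adjusted p 0.1032 and 0.1196) passed with the replicate block (0.0224 and 0.0309), where 2 and 5 genes of the list passed, each lower. With the block 5.47% of all genes passed higher and 3.14% lower in WT, and 7.8% and 3.92% in KO. CDK4 had differences of 0.02 in WT and -0.51 in KO (edgeR adjusted p 0.994 and 0.646) and of -1.16 and -0.81 without the libraries numbered 1 (adjusted p 0.00799 and 0.0292). CDK2 (-0.37 and -0.29), RB1 (-0.11 and -0.17), RBL1 (-0.07 and -0.44), RBL2 (-0.18 and -0.21) and E2F1 (0.33 and 0.01) did not pass for butyrate in WT or KO, with edgeR adjusted p from 0.324 to 0.999.

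Between genotypes, 4 genes of this list were higher in KO in untreated cells and 0 lower (all genes 11.7% and 10.9%), and 3 were higher and 2 lower in treated cells (all genes 10.1% and 8.89%). As shares of the list, both counts were below the 22.6% and 19% of all genes called. RB1, the pocket protein that the cyclin-CDK complexes inactivate, was higher in KO by 1.02 in untreated (SE 0.20, edgeR adjusted p 0.00304) and 0.95 in treated cells (SE 0.20, adjusted p 0.00550). MNAT1, a subunit of the CDK-activating kinase (0.87 and 0.74), and RBBP4, a histone-binding protein of the DREAM complex (0.83 and 0.72), were also higher in both. LIN52 was higher in untreated cells (1.07), and the pocket protein RBL1 (-0.80) and the CDK-inhibiting kinase WEE1 (-0.79) were lower in treated cells. With the replicate block 6 genes of the list were higher and 1 lower in untreated cells (16.9% and 16.1% of all genes), and 6 and 3 in treated cells (15.6% and 13.6%). RBL2 averaged 68.8 CPM in untreated WT and 44.1 in untreated KO, and 60.8 and 38.1 in treated cells. It passed as lower in KO in both settings with the block and without the libraries numbered 1. LIN52 passed in treated cells too in these 2 fits, again higher in KO.

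In a list of growth arrest and DNA damage response genes (20 genes, 19 tested) BTG2, an antiproliferative gene, rose by 2.55 with butyrate in WT (SE 0.57, edgeR adjusted p 0.0399), and its difference in KO was 1.52 (SE 0.55, adjusted p 0.146, and 0.00690 with the block). It was 1 of 19 called in WT (2.35% of all genes) and 0 of 19 were called in KO (3.4%). In KO 7 of the 19 had an unadjusted p under 0.05, as did 19.8% of all genes. The list medians of 0.15 and 0.00 lay near those of all genes. Between genotypes FDXR (-1.65 and -0.91, untreated and treated) was lower and GADD45A (0.94 and 0.84) higher in KO in both settings. ZMAT3 passed as higher in untreated (0.93) and CCNG1 as lower in treated cells (-1.27). Treated means of ZMAT3 were 48.3 CPM in KO and 26.1 in WT, and untreated means of CCNG1 180 and 336. Those differences passed with the replicate block but not without the libraries numbered 1. The GADD45A difference in treated cells also passed with the block and was lost without those libraries. Each setting had 3 of 19 called, where 22.6% (untreated) and 19% (treated) of all genes passed. With the replicate block edgeR called 2 genes of this list higher and 0 lower for butyrate in WT (all genes 5.47% and 3.14%). In KO it called 2 and 1 (7.8% and 3.92%). Between genotypes it called 3 and 3 when untreated (16.9% and 16.1%) and 2 and 4 when treated (15.6% and 13.6%).

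Of the 20 E2F target genes 0 passed for butyrate in edgeR, with medians of -0.20 in WT and -0.29 in KO. An unadjusted p under 0.05 was held by 1 in WT and 3 in KO (18% and 19.8% of all genes). In untreated cells 0 of the 20 passed between genotypes in edgeR, 4 having an unadjusted p under 0.05 (34.6% of all genes). In treated cells TK1 (-0.86) and MCM7 (-1.11) were lower in KO. Their untreated means were also lower in KO, MCM7 at 343 CPM against 655 in WT and TK1 at 127 against 188. Both passed in untreated cells with the replicate block and without the libraries numbered 1. With the replicate block edgeR called 1 of the 20 higher and 1 lower for butyrate in WT (all genes 5.47% and 3.14%). In KO it called 1 higher (7.8%). Between genotypes it called 2 higher and 3 lower in untreated cells (16.9% and 16.1%). In treated cells it called 3 higher and 2 lower (15.6% and 13.6%). Over the 3 lists together 1, 0, 7 and 10 of 77 genes were called for butyrate in WT, butyrate in KO, genotype in untreated and genotype in treated cells, against 2.35%, 3.4%, 22.6% and 19% of all genes. With the replicate block these counts were 6, 9, 18 and 20, where 8.61%, 11.7%, 33% and 29.2% of all genes passed, and without the libraries numbered 1 they were 9, 10, 12 and 16, where 11.4%, 13.1%, 26.2% and 24.7% passed.

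**Figure D5:**
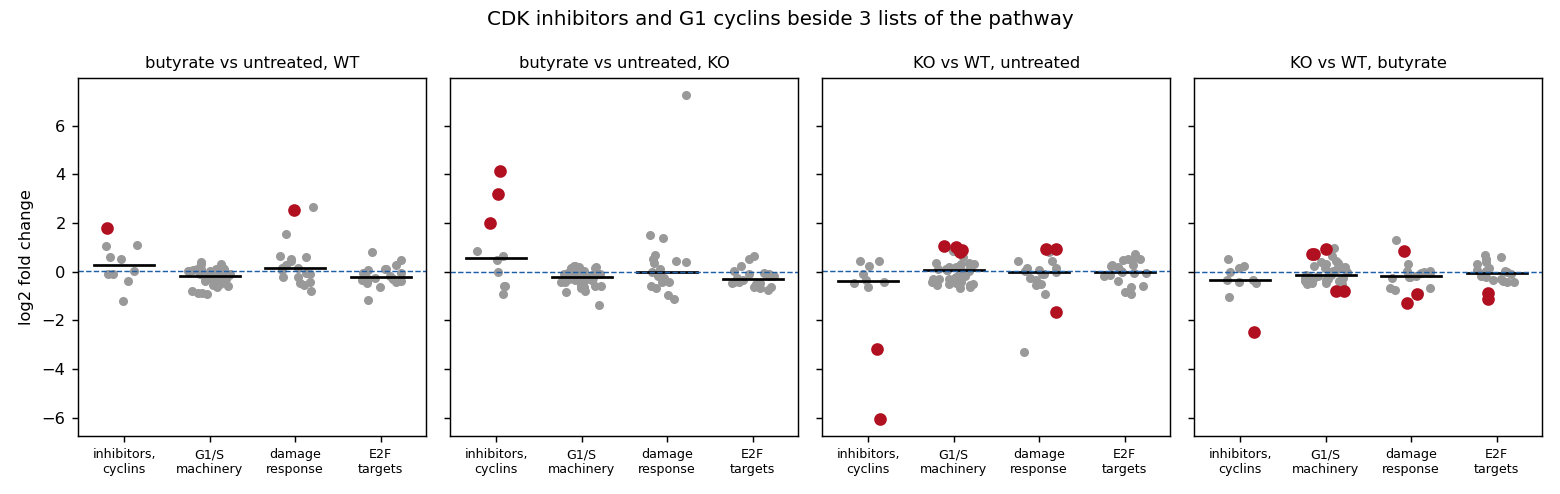
Log2 fold changes of the 10 members and of the genes of 3 pathway lists in the 4 comparisons, red where the adjusted p was under 0.05, with list medians as bars and the median of all genes as a dashed line. In the KO butyrate panel 3 members are red and 0 genes of the lists, and in the untreated genotype panel the lowest red point of all is CCND1 at -6.07.

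For the 3 members past the threshold in any comparison, the genes of most similar profile were found by the root mean square difference of centred log2 CPM over the 12 libraries, among 9733 genes with a mean of at least 10 CPM. Closest to CDKN1A, whose own SD over the libraries was 1.79, were SESN3 (0.39), PDLIM4 (0.48) and SYT5 (0.53). Closest to CDKN2D (SD 1.05) were IGSF3 (0.36), CDH24 (0.43) and SMAD6 (0.45), and closest to CCND1 (SD 2.92) were LINC01694 (0.69), VSIR (0.91) and TSSC2 (0.99). These values describe likeness over libraries that differ in genotype, treatment and replicate number together.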

How the data were processed

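RNA of 12 libraries (4 groups of 3, grouped and numbered by the sample titles) had been sequenced, and the authors deposited 1 table of counts, whole numbers with a gene symbol for each entry. Per the submitters' processing notes, FastQC 0.12.1, STAR 2.7.11b and the build hg38 were used. The counting tool, annotation, strand and filters are not given in the sources used here. All columns were matched to samples by library name, with 0 unused, and 0 rows lacked a gene name. No replicate pair agreed within sampling noise (smallest chi-square per degree of freedom 37.2).

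Counts were analysed in R 4.3.3 with edgeR 4.0.16. Genes passing filterByExpr (minimum count 10) were kept, libraries were scaled by TMM, and the quasi-likelihood fit took 1 coefficient for each group, using the 12 libraries together (biological coefficient of variation 0.384). Each of 5 contrasts had its p-values adjusted (Benjamini-Hochberg, every tested gene), with a threshold of 0.05. Log2 CPM used a prior count of 2. The code was tested on simulated data. The limit of detection of 3 counts covers counting error only. Levels per kilobase used the union of exons in GENCODE 29, which may differ from the annotation used for counting.

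Replicate numbers were taken as a pairing in the block, and the main fit did not use it. For equal numbers, deviations from the group means correlated over genes by 0.195 to 0.409 (butyrate in WT), 0.147 to 0.468 (butyrate in KO), 0.210 to 0.361 (genotype, untreated) and 0.315 to 0.595 (genotype, treated). Unequal numbers gave at most 0.186, 0.123, 0.0692 and 0.343. The last exceeds the lowest equal value of 0.315, so this check does not settle the pairing. The pairing comes from the numbers in the titles and this check. Blocked values are given where they change the call of a member. For the lists the blocked counts are given, and not every list gene whose call the block changed is named.

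Alternatives were RLE scaling, library size alone, no filter, at least 10 counts in every library, the DESeq2 1.42.0 Wald test, the replicate block, leaving out the libraries numbered 1, and leaving out each library in turn. Named genes are the members, CDK2, CDK4, CDK6, RB1, RBL1, RBL2, E2F1, CDKN2A, CDKN2B and SLC48A1, the genes nearest in profile (3 for each called member), and up to 3 rises and 3 falls per list and contrast among called genes whose higher group had 50 counts or more in each library. A further gene of the naming rule is not reported here. LTO1, INTS8 and AC008012.1 were added for their overlapping exons. RefSeq promoter windows matched 6 of the 10 members. The members and lists were chosen with earlier results of these data known.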

Additional observations from a re-analysis of the deposited data

How the results depend on the processing

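None of the 7 called member differences changed sign in its 88 alternatives, and 14 of these, each leaving out 1 library, missed the threshold. Over all 705 alternative values of members in the 5 contrasts, 636 kept direction and side of the threshold, 13 newly passed and 42 changed sign.

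Counts called are given for members, pathway genes and all genes. For butyrate in WT (main counts 1, 1 and 372) the replicate block gave 2, 6 and 1361, the DESeq2 Wald test 2, 4 and 1331, and leaving out the libraries numbered 1 gave 3, 9 and 1884. No filter gave 2 members, and library size alone 0 pathway genes. For butyrate in KO (3, 0 and 537) the block called 9 pathway genes and 1852 in all, DESeq2 4 and 1538, and the fit without the libraries numbered 1 called 6 members, 10 pathway genes and 2164 in all. At least 10 counts in every library gave 304 in all. For genotype in untreated cells (2, 7 and 3574) the block gave 18 pathway genes, the fit without number 1 gave 12, and at least 10 counts in every library gave 1 member and 2334 in all, since CCND1 is then not tested. For genotype in treated cells (1, 10 and 3009) the block gave 2, 20 and 4612, the fit without number 1 gave 2 members and 16 pathway genes, and at least 10 counts gave 0 members, CCND1 not being tested, and 1947 in all. For the interaction (0, 0 and 0) DESeq2 called 1 member and 86 genes, no filter 2 genes, at least 10 counts 1, the block 3 and the fit without number 1 gave 9. Where no construction is named, the cause was not tested.

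Leaving out 1 library placed the members called at 0 to 1 for butyrate in WT, 0 to 3 in KO and 0 to 1 for genotype in treated cells. Pathway genes ranged over 0 to 7, 0 to 1, 2 to 7 (untreated) and 2 to 15 (treated), and all genes over 43 to 1243 in WT, 48 to 833 in KO and 0 to 2 in the interaction. Where a group then held 2 libraries, they were assumed to vary like the other groups.

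Signs changed among uncalled values. CCNE2 for butyrate in KO (0.0008) was -0.0073 with no filter and -0.0064 with the block. CDKN1B for genotype in treated cells (-0.02) was 0.13 with library size alone, 0.0149 with the block and 0.12 without the libraries numbered 1, and CDKN1C without those was 0.12 for genotype in untreated cells, 0.17 in treated cells and 0.0584 in the interaction. Leaving out 1 library gave CDKN1B -0.81 to 0.14, CCNE1 -0.11 to 0.0832 and CCNE2 -0.23 to 0.0462 for butyrate in WT, and CCNE2 -0.21 to 0.29 in KO. It gave CDKN1C -0.85 to 0.16 and CCND2 -0.0325 to 0.41 for genotype in untreated cells, and CDKN1B -0.54 to 0.66, CDKN1C -0.79 to 0.0567, CDKN2C -0.20 to 0.52 and CCND3 -0.70 to 0.0395 in treated cells. In the interaction it gave CDKN1B -1.01 to 0.23, CDKN1C -0.68 to 0.49, CDKN2C -0.65 to 0.10, CCND2 -0.0738 to 0.53, CCND3 -0.21 to 0.53 and CCNE2 -0.13 to 0.37. The replicate block changed 2 of 50 member calls, CCND2 for butyrate in WT and CDKN1A for genotype in treated cells. Library size alone moved the median of all genes by 0.12 for butyrate in KO and by 0.11 in the interaction. CCND1 in untreated KO, at 3 to 27 counts, is the member most limited by depth.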
